A study of Mus musculus with 4 samples.

Results

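The Sp100 cluster and the Trpm8-Hjurp locus are a pair of gene groups on mouse chromosome 1 that carry long stretches of trimethylated lysine 9 of histone H3 (H3K9me3). The cluster holds Sp110, Sp140 and Sp100, and the locus holds Heatr7b1, Hjurp and Trpm8. The 6 genes were chosen by their long runs of H3K9me3 regions in the same lists that are described here, so their H3K9me3 coverage is a description and carries no test. All regions of the H3K9me3 and H3K36me3 lists that overlapped these genes or lay within 5 kb of them were taken. There were 60 such regions, 36 at the Sp100 cluster and 24 at the Trpm8-Hjurp locus, of 64095 regions in both lists.

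The regions came from chromatin immunoprecipitation and sequencing (ChIP-seq) of mouse embryonic stem (ES) cells of the strain 129S1/SvImJ at passages below 20, cultured with serum and leukaemia inhibitory factor. WT cells were unmodified. G34R cells were heterozygous for a targeted H3f3a allele that encodes the histone variant H3.3 with glycine 34 replaced by arginine, expressed from the endogenous H3f3a promoter after Cre excision of a conditional allele, and both cell types carried intact H3f3b. H3K9me3 and H3K36me3 were each measured in 1 library of WT and 1 library of G34R cells. Each mark was given as a single list in which a 200 bp bin of an annotated gene entered when it passed the 95th percentile in WT or in G34R cells, so the lists do not say in which cells a region was enriched. The authors also removed regions by size and by extreme read count, and no region at the 6 genes was narrower than 600 bp. The methods word the size limit as removing regions above it, which goes against these widths, so it was read here as a minimum width. A bin outside a list need not lie below the percentile. There were no replicate libraries, the lists give no read values or depths, and WT and G34R cells were not compared here. The identity of the cells could not be checked against marker genes, since the lists hold no expression values.

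H3K9me3 is a mark of compacted, silenced chromatin and is bound by proteins of the HP1 family. H3K36me3 is laid down over the bodies of transcribed genes behind elongating RNA polymerase. Sp100 is a constituent of PML nuclear bodies and, with its relatives Sp110 and Sp140, belongs to an interferon-inducible family with DNA-binding SAND domains. Hjurp is the chaperone that delivers the histone variant CENP-A to centromeres. Trpm8 is the cold- and menthol-activated cation channel of sensory neurons. Heatr7b1 encodes a protein of HEAT repeats.

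Sequence was examined before coverage, because the Sp genes lie in duplicated sequence. The exon copies below are shown as examples of copies on the same chromosome. For each Sp gene the exon is the short, wholly coding one with most copies on chromosome 1 that align without gaps, and its identity to them does not stand for the gene, since the long alignments to chromosome 1 had 95.2% to 98.4% identity in a search that kept only 95% or more. All positions are on the NCBIM37 assembly, which comes from C57BL/6J and not from the strain of the cells. Exon 14 of Sp140 (chr1:87539117-87539222, plus strand, 106 coding bases) lay within the H3K9me3 list over its whole length and outside the H3K36me3 list. Long alignments placed it 4 more times on chromosome 1, and all 4 copies were also in the H3K9me3 list over 106 bases. The copy in Gm16092 (chr1:87409028-87409133, plus strand) was identical. The copies in Gm6264 (chr1:85188684-85188789, plus strand), in Gm7281 (chr1:85337747-85337852, minus strand) and elsewhere in C130026I21Rik (chr1:85064587-85064692, minus strand) differed by 1, 1 and 2 bases. Capitals mark the differing bases.
Sp140 exon 14: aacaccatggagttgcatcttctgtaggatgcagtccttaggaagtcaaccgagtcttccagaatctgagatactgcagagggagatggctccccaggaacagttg
copy in Gm6264: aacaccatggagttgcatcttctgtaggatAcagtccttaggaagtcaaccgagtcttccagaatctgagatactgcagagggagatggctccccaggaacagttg
copy in Gm7281: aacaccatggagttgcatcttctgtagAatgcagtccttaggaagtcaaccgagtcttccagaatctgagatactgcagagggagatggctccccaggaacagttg
copy in C130026I21Rik: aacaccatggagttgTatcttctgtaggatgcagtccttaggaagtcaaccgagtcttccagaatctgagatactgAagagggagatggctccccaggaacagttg

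Exon 2 of Sp100 (chr1:87556278-87556437, plus strand, 160 coding bases) was 1 of only 2 exons of that gene in the H3K9me3 list. It had 3 gapless copies on chromosome 1, in Gm2619 (chr1:85313700-85313859, minus strand), Gm7582 (chr1:85038372-85038531, minus strand) and Gm7592 (chr1:87432844-87433003, plus strand). They differed from Sp100 by 1, 2 and 3 bases. The first 2 copies lay wholly in the H3K9me3 list, whereas that in Gm7592 had 3 of its 160 bases there.
Sp100 exon 2: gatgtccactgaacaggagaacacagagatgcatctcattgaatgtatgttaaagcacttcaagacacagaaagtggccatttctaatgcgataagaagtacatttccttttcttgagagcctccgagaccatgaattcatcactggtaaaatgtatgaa
copy in Gm2619: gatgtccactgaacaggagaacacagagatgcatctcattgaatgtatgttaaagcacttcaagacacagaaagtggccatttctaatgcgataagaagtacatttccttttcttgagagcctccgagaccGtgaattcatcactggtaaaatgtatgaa
copy in Gm7582: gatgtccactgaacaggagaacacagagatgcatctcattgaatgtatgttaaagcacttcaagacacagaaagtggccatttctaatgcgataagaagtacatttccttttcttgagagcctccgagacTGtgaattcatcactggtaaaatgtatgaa
copy in Gm7592: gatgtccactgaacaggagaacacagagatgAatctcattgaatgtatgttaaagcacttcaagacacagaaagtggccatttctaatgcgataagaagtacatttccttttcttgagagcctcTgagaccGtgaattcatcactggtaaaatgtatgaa

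Exon 9 of Sp110 (chr1:87480087-87480155, minus strand, 69 coding bases) was in both lists and had 2 such copies on chromosome 1. The copy in Gm16026 (chr1:85281998-85282066, plus strand) was identical to it, yet had 0 bases in either list. The copy in C130026I21Rik (chr1:85242214-85242282, minus strand) differed by 1 base and lay in the H3K9me3 list but not in the H3K36me3 list. Identical sequence was therefore listed at Sp110 and not at its copy. The lists were limited to UCSC genes, and whether these include Gm16026 was not tested.
Sp110 exon 9: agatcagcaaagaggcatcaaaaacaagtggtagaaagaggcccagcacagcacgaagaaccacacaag
copy in C130026I21Rik: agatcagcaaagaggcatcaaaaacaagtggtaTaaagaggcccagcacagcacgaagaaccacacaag

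The 3 Sp genes stand next to each other. Sp110 (ENSMUSG00000070034.7, 87473474 to 87495392) is on the minus strand, and its start lies 1560 bp from that of Sp140 (ENSMUSG00000070031.5, 87496953 to 87541612) on the plus strand. Sp100 (ENSMUSG00000026222.9, 87546563 to 87606573) follows on the plus strand after 4950 bp. H3K9me3 covered nearly all of Sp110 and Sp140 and little of Sp100. Of the 200 bp bins touching each gene, 104 of 110 were in the H3K9me3 list at Sp110 (94.5%, 95% Wilson interval 88.6 to 97.5), 207 of 225 at Sp140 (92.0%, 87.7 to 94.9) and 49 of 301 at Sp100 (16.3%, 12.5 to 20.9). The background was 3.43% of 5291359 bins in annotated genes. Intervals cover counting error only, and neighbouring bins of a region are not independent. Among 13664 protein-coding genes of at least 50 bins, 10 reached the share of Sp110 and 13 that of Sp140, each count including the gene itself.

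H3K36me3 was highest in Sp110, intermediate in Sp140 and absent from the list in Sp100. It took up 81 bins of Sp110 (73.6%, 64.7 to 81.0), 74 bins of Sp140 (32.9%, 27.1 to 39.3) and 0 of 301 bins of Sp100 (upper Wilson bound 1.26%). The background was 5.33% of genic bins. A subset chosen after seeing the data kept bins with no 50 base window of more than 5 copies in the assembly. There H3K36me3 took 6 of 16 bins of Sp110 (37.5%) and 2 of 21 of Sp140 (9.52%). The count in Sp140 is too small to set its share apart from the background. Over the 3 genes the share was 3.10%, below the background, since 221 of the bins kept were of Sp100, with 0 in the list. Every H3K36me3 bin of Sp110 and of Sp140 was also an H3K9me3 bin.

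**Figure D1:**
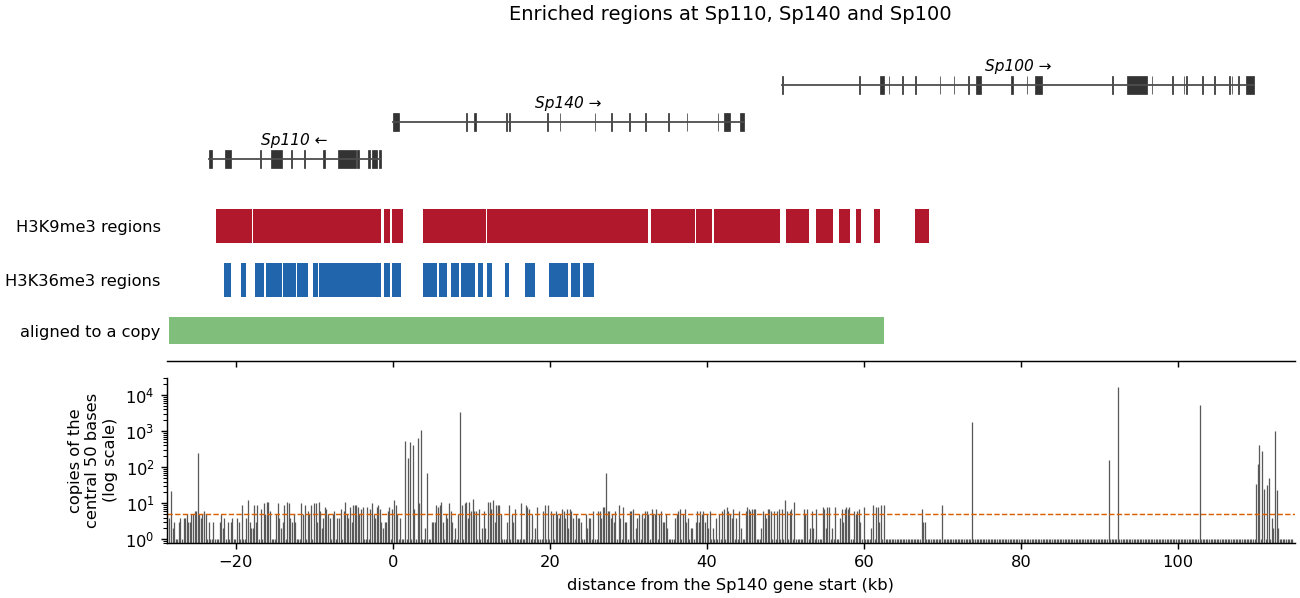
Map of the Sp genes with 5 kb on each side, by distance in kb from the Sp140 gene start. Upper panel: genes with exons as boxes and arrows for the direction of transcription, bins in the H3K9me3 list (red) and H3K36me3 list (blue), and the stretch aligned to a copy of at least 2.5 kb (green). Lower panel: exact copies of the central 50 bases of each bin on a log axis, with a dashed line at 5. H3K9me3 thinned out close to where the aligned stretch ended inside Sp100, and H3K36me3 ended inside Sp140.

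The 15 H3K9me3 regions at the cluster covered 77.2 kb, were 600 to 20400 bp wide, and included 5 of at least 5 kb. The widest (87509001 to 87529400) lay in Sp140, and 12 of 32502 H3K9me3 regions were as wide or wider, itself included. The second widest (87479201 to 87495400, 16200 bp) took up most of Sp110 and ended 8 bp past its start. A region of 8400 bp (87537801 to 87546200) crossed the end of Sp140 and stopped 363 bp before the start of Sp100. With gaps of up to 2 kb bridged, these regions formed a run of 23.8 kb (87474401 to 87498200) over Sp110 and the start of Sp140, and a run of 58.2 kb (87500801 to 87559000) over the rest of Sp140 and the beginning of Sp100. The longer run was the 3rd longest of 22532 in the list at this gap, and gaps of 5 and 10 kb gave 90.8 and 157.2 kb. Between the runs lay 2.6 kb of Sp140 (87498201 to 87500800) in neither list, where the central 50 bases of 8 of 13 bins had more than 5 copies, with a maximum of 1063. Within the longer run it was 7 of 29 gap bins (24.1%), below the 39.9% of listed H3K9me3 bins at the cluster. Of the 4 gap bins in the shorter run, 3 lay outside the member genes, where a list limited to annotated genes may hold no bin, so they were not compared.

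The 21 H3K36me3 regions were smaller and covered 31.8 kb. The widest (87487601 to 87495400, 7800 bp) lay at the start of Sp110 and ended on the same base as H3K9me3. That base closes the last bin touching Sp110, beyond which a list limited to annotated genes may hold no bin. From its start H3K36me3 thinned towards the end of Sp110, from 100% of bins in each of the first 3 of 10 equal parts of the gene to 9.09% in part 10. H3K9me3 kept to 90.9% or more of bins in parts 1 to 9 and was 54.5% in part 10. In Sp140, H3K36me3 was present in parts 1 to 6 (36.4% to 77.3% of bins) and absent from parts 7 to 10. Its last region ended at 87522600, and of the 96 bins of Sp140 beyond it 92 carried H3K9me3. One region of 800 bp (87495801 to 87496600) over Gm16094, a non-coding transcript between Sp110 and Sp140, was identical in both lists. Its edges are those of the bins touching Gm16094, where a list limited to annotated genes may end. Nothing is therefore read from the shared edges. This region was the only one of either list that lay in the flanks alone.

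Exons of the 3 Sp genes were counted next. H3K9me3 touched 11 of 12 exons of Sp110, 18 of 18 of Sp140 and 2 of 25 of Sp100, and H3K36me3 touched 11, 7 and 0. Over all protein-coding genes, 6.60% of exons were touched by H3K9me3 and 21.2% by H3K36me3. The exon of Sp110 outside both lists was exon 12, at its end. In coding sequence, H3K9me3 covered 1284 of 1335 bp of Sp110, 1772 of 1772 bp of Sp140 and 250 of 2265 bp of Sp100. H3K36me3 covered 1214, 554 and 0 bp. In Sp110, H3K36me3 took 90.5% of bins with an exon and 63.2% of those without, whereas in Sp140 the shares were 34.3% and 32.6%.

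Annotated transcript starts of the Sp genes were counted in both lists. All 4 distinct annotated transcript starts of Sp110 lay in both lists, but most of them fall in the same 200 bp bin. All 6 of Sp140 lay in the H3K9me3 list and 2 of them in the H3K36me3 list. None of the 10 distinct starts of Sp100 was in either list, and some of these also fall in the same 200 bp bin. As the share over all annotated starts was not counted, nothing is read from these counts. The gap around the main starts of Sp100 (87546201 to 87547000) held 4 bins with 1 to 12 copies of their central 50 bases. The 250 bases before the start are shown for Sp100 (chr1:87546313-87546562, plus strand), with each CG in capitals.
Sp100, before the start: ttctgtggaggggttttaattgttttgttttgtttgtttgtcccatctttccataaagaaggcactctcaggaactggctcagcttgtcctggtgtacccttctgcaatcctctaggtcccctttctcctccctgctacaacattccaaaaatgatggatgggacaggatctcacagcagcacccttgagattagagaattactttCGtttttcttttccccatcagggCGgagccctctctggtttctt
They held 2 CG, as did those before Sp140, and Sp110 had 3. The median over 22362 promoters of protein-coding genes was 8, and 83.4% had 2 or more. The starts of Sp100 and Sp140 had the same CG count and differed in listing. Whether CG count bears on listing was not tested.

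Copied sequence was counted next, since reads with more than 5 alignments were discarded by the authors and exact copies cannot be told apart by reads. Of the 386 H3K9me3 bins at the cluster, 280 (72.5%, 67.9 to 76.8) had central 50 bases that occurred more than 1 time in the assembly. For comparison, this held for 7.71% of all genic bins, 7.32% of all H3K9me3 bins and 11.6% of the 276 bins of the Sp genes outside both lists (8.33 to 15.9). Of these 276 bins, 252 lay in Sp100, so the last value mainly compares genes. Over all their bins, listed or not, the share was 73.6% in Sp110, 72.0% in Sp140 and 15.9% in Sp100. H3K36me3 bins of the cluster had a similar share, with 123 of 159 (77.4%, 70.3 to 83.2). At least 1 copied window of 50 bases was found in 98.7% of the H3K9me3 bins. For 269 of the 280 bins every copy lay within the cluster, in a pair of blocks of chromosome 1 or in sequence not placed on a chromosome. The other 11 had copies elsewhere too, and 3255 of all 4846 copies (67.2%) lay on other chromosomes. This total rests largely on 1 bin, whose central bases occurred 3348 times, against a median of 4 over the H3K9me3 bins.

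A copied 50 base window is shown for each gene, chosen as the one with most copies among windows whose copies all lay in those places. That of Sp110 (chr1:87478476-87478525) had 12 copies, itself included, of which 4 others were on chromosome 1 and 7 in unplaced sequence. That of Sp140 (chr1:87507076-87507125) had 13 copies, 3 and 9 of them in the same places, and was also in the H3K36me3 list. That of Sp100 (chr1:87551676-87551725) had 8, with 3 and 4. All are intronic and on the plus strand.
Sp110: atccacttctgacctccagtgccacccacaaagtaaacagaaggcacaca
Sp140: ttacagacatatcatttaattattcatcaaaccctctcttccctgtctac
Sp100: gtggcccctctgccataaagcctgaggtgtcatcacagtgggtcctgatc

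The larger block (84981745 to 85343678, 361.9 kb) aligned to 87.4 kb of the cluster and its flanks at 95.2% to 98.4% identity, in 26 alignments of up to 13014 bp. The smaller block (87343679 to 87436090, 92.4 kb) aligned to 44.9 kb in 8 alignments of up to 14345 bp, at 96.0% to 98.1% identity. Of the 280 copied bins, 220 had an exact copy in the larger block, 97 in the smaller block and 252 in unplaced sequence. Of 345 exact copies in the larger block, 290 were themselves in the H3K9me3 list and 100 in the H3K36me3 list. In the smaller block the counts were 39 and 0 of 97. No chromosome other than 1 had an alignment of 2.5 kb or more. Copies in unplaced sequence decided how many bins exceeded the limit of 5: it was 39.9% of H3K9me3 bins over the whole assembly and 1.30% over the placed chromosomes alone. Which sequences the authors aligned to is not given in the sources used here.

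**Figure D2:**
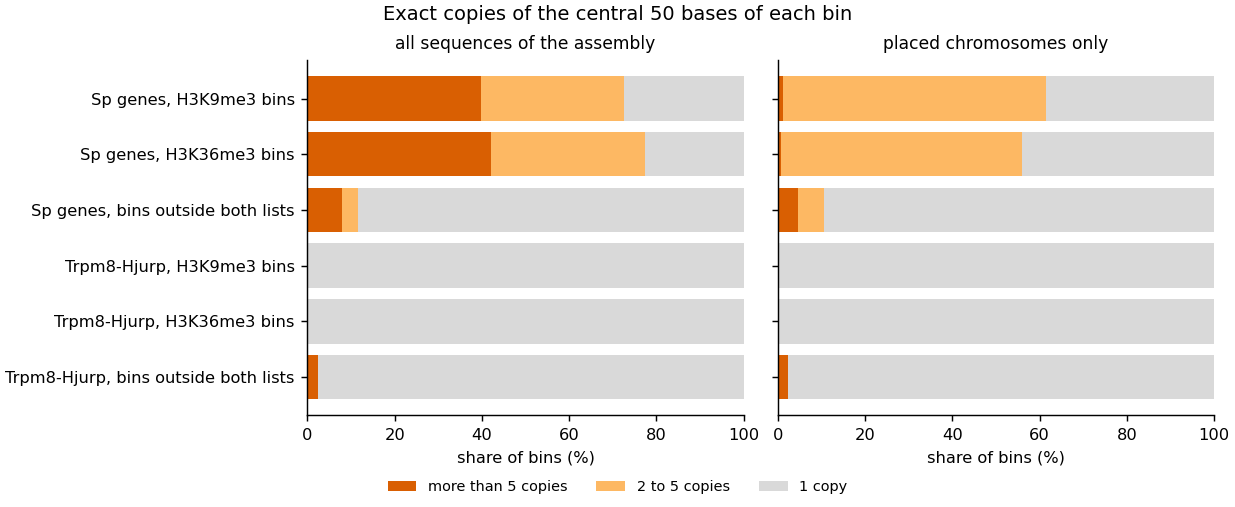
Share of bins by the number of exact copies of their central 50 bases, for bins of each list within 5 kb of the genes and for gene bins in neither list. The left panel counts copies in all sequences of the assembly and the right panel those on placed chromosomes. At the Sp genes 72.5% of H3K9me3 bins were copied, against 0 of 439 at the Trpm8-Hjurp locus.

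The aligned stretch covered all of Sp110 and Sp140 and ended inside Sp100 at 87559533. With gaps of up to 2 kb bridged, the long H3K9me3 run ended 533 bp before that base. With gaps of up to 1 kb it ended at 87556600, and with gaps of up to 5 kb at 87565200. The distance of the run end from the aligned edge therefore depends on the gap. The aligned stretch took in the first 12971 bp of Sp100 (21.6% of the gene). Within it, 40 of 65 bins of Sp100 carried H3K9me3 (61.5%), compared with 9 of 236 (3.81%) in the remainder of the gene. The latter share was close to the 3.43% of genic bins. Sp100 had no H3K36me3 bin in either portion. Among bins whose central 50 bases were unique, H3K9me3 held 89.7% of Sp110 and 88.9% of Sp140, but 7.51% of Sp100. Such bins can still hold copied windows beside the centre, and no bin of Sp110 or Sp140 was without one. In bins with no window of more than 5 copies, a subset chosen after seeing the data, H3K9me3 held 12 of 16 bins of Sp110 (75.0%), 19 of 21 of Sp140 (90.5%) and 10 of 221 of Sp100 (4.52%). H3K36me3 held 6 of the 16 (37.5%), 2 of the 21 (9.52%) and 0 of the 221, against 73.6% of Sp110 and 32.9% of Sp140 in all bins. Over the 3 genes together the share fell from 56.6% to 29.3% in unique bins, most of which lie in Sp100. For listed bins that hold copied windows (381 of 386), whether the signal came from the Sp genes or from their copies cannot be told apart, and the part of copied sequence in the listing was not tested. The copy number of the Sp sequences in 129S1/SvImJ cells was not measured.

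The Trpm8-Hjurp locus lies 2517 kb further along the chromosome and was of the opposite kind in sequence. None of its 439 H3K9me3 bins had copied central bases (upper Wilson bound 0.867%), and no alignment of at least 1 kb and 95% identity linked it to other places on chromosome 1 or to unplaced sequence. Heatr7b1 (ENSMUSG00000079429.3, 90123561 to 90158864) is on the plus strand and overlaps the end of Hjurp (ENSMUSG00000044783.9, 90155690 to 90174208, minus strand) by 3175 bp. Trpm8 (ENSMUSG00000036251.9, 90174236 to 90285868) is on the plus strand, and only 27 bp separate its annotated start from that of Hjurp. That start belongs to a processed transcript. The transcript of Trpm8 with the longest coding sequence begins at 90203334.

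**Figure D3:**
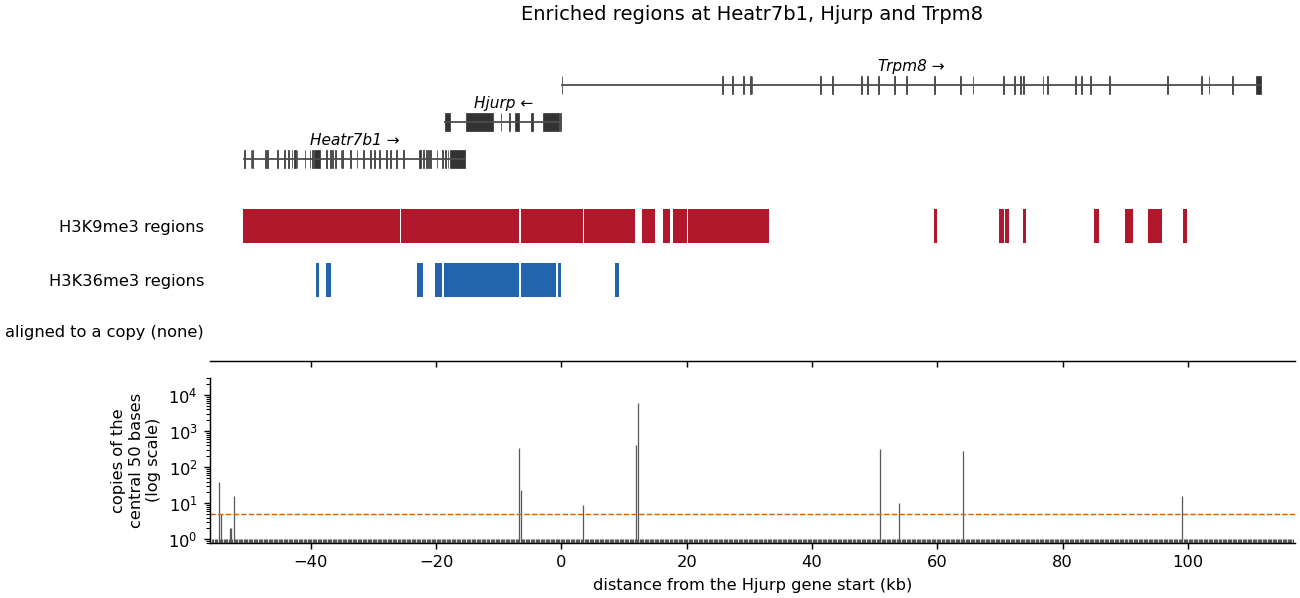
Map of Heatr7b1, Hjurp and Trpm8 with 5 kb on each side, by distance in kb from the Hjurp gene start, drawn like the map of the Sp genes. No stretch aligned to a copy. H3K9me3 ran without large gaps over Heatr7b1, Hjurp and the beginning of Trpm8, and H3K36me3 was concentrated over Hjurp.

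H3K9me3 covered Heatr7b1 and Hjurp almost completely, whereas in Trpm8 it lay mainly over the beginning of the gene. It was found in 177 of 178 bins of Heatr7b1 (99.4%, 96.9 to 99.9), 92 of 94 bins of Hjurp (97.9%, 92.6 to 99.4) and 188 of 559 bins of Trpm8 (33.6%, 29.8 to 37.6). The share of Heatr7b1 was reached by 4 and that of Hjurp by 6 of the 13664 genes, themselves included. H3K36me3 separated the genes: it was found in 90 bins of Hjurp (95.7%, 89.6 to 98.3), 36 of Heatr7b1 (20.2%, 15.0 to 26.7) and 3 of Trpm8 (0.537%, 0.183 to 1.57). With flanks of 5 kb, which before Trpm8 lie in Hjurp, the share of Trpm8 was 4.43%. Hjurp was 1 of 3 genes with an H3K36me3 share this high. It also had 90 bins in both lists, a number reached by 12 of 22367 protein-coding genes.

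**Figure D4:**
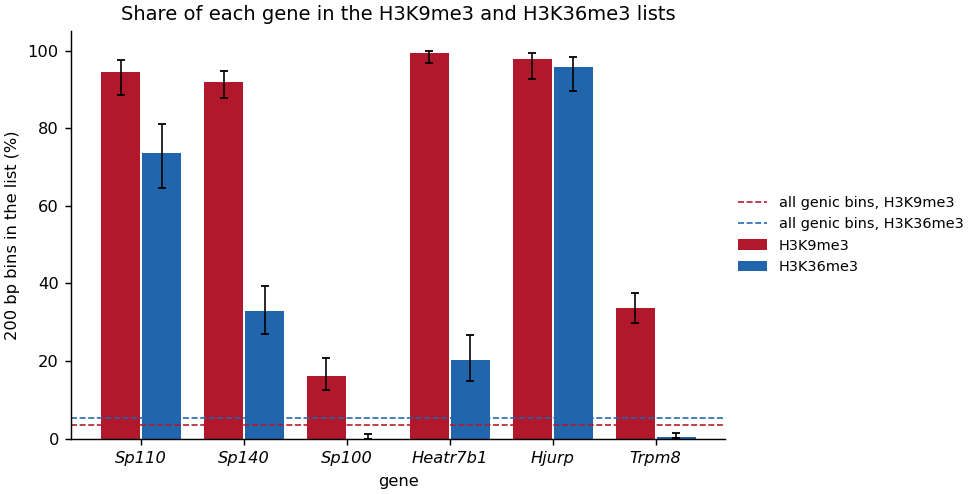
Share of the 200 bp bins of each gene in the H3K9me3 (red) and H3K36me3 (blue) lists, with 95% Wilson intervals and dashed lines for all genic bins (3.43% and 5.33%). H3K9me3 exceeded 90% in 4 of the 6 genes, and H3K36me3 did so in Hjurp alone.

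The 16 H3K9me3 regions at the locus covered 87.8 kb. The widest (90123401 to 90148400, 25000 bp) began 160 bp before Heatr7b1, as the first bin that touched the gene, and 8 H3K9me3 regions in the list were as wide or wider, itself included. It was followed after 1 bin by a region of 18800 bp (90148601 to 90167400) and then by one of 9800 bp (90167801 to 90177600), which spanned the starts of both Hjurp and Trpm8. Together with 5 further regions they made a run of 84.0 kb (90123401 to 90207400), the 2nd longest in the list, which ended 4066 bp after the start of the main transcript of Trpm8. With gaps of 5 and 10 kb it was 84.0 and 107.2 kb, shorter than the 90.8 and 157.2 kb at the Sp100 cluster, so the order of the loci depends on the gap. Beyond the run, H3K9me3 was found in 37 of 393 bins of Trpm8 (9.41%), in 8 regions of 600 to 2200 bp, up to 90274000. Inside the run it was found in 151 of 166 bins of the gene (91.0%).

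Only 18 of 420 bins of the long run were outside the H3K9me3 list, and 5 of them had more than 5 copies of their central 50 bases, in contrast to 0 of the 402 listed bins. In the longer run of the Sp genes the share was instead lower in gap bins than in the listed bins of the cluster (24.1% and 39.9%). The gap within Hjurp (90167401 to 90167800) was the same in both lists, and its 2 bins had 349 and 23 copies. The other gaps were longest in Trpm8 (90186001 to 90187000 and 90189201 to 90190400). Bins of the former had up to 6157 copies, and those of the latter were unique.

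The 8 H3K36me3 regions covered 22.4 kb, and 3 of them followed the body of Hjurp. They ran from 289 bp beyond the annotated end of the gene to 8 bp inside its start (90155401 to 90167400, 12000 bp; 90167801 to 90173400, 5600 bp; 90173601 to 90174200, 600 bp). H3K36me3 stopped at the start of Hjurp, while H3K9me3 continued through it into Trpm8. In Heatr7b1, 17 of 17 bins of the part shared with Hjurp were in the H3K36me3 list, compared with 20 of 162 (12.3%) outside the shared part. ChIP-seq does not separate strands, so the marks of the overlapping ends cannot be assigned to either gene. A single region of 600 bp (90182801 to 90183400) lay in an intron of Trpm8.

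The bases between the starts of Hjurp and Trpm8 (chr1:90174209-90174235, plus strand) are shown because H3K36me3 ended at 90174200, just before them, while H3K9me3 continued across them. The 250 bases before Hjurp (chr1:90174209-90174458, minus strand) and before Heatr7b1 (chr1:90123311-90123560, plus strand) are shown beside them, with each CG in capitals.
Hjurp to Trpm8: ggggagggaCGagagggagggtcCGcc
Hjurp, before the start: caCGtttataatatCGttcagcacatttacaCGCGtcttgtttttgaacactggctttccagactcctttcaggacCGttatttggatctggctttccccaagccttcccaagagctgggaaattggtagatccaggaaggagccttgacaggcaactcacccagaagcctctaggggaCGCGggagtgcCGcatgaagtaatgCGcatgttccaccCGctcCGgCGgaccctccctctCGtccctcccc
Heatr7b1, before the start: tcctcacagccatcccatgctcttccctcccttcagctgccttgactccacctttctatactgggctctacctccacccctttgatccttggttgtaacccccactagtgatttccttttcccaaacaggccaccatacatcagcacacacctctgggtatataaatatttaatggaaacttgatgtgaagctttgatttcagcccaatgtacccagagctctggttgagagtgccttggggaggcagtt
Both starts were in the H3K9me3 list, and their CG counts differed. Hjurp had 13 CG in 250 bases, above the median of 8 over all promoters, and 38.3% of promoters had 13 or more. Heatr7b1 had 0 CG, as did the 250 bases before the main transcript of Trpm8. Of the annotated transcript starts, 5 of 5 of Heatr7b1, 7 of 8 of Hjurp and 3 of 4 of Trpm8 lay in the H3K9me3 list. The H3K36me3 list held 1, 6 and 0 of them. Some starts of Heatr7b1 and of Hjurp fall in the same 200 bp bin. As the share over all annotated starts was not counted, nothing is read from these counts.

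The exons of Heatr7b1, Hjurp and Trpm8 were counted in the same way. H3K9me3 touched 43 of 43 exons of Heatr7b1, 8 of 8 of Hjurp and 9 of 31 of Trpm8, and H3K36me3 touched 11, 8 and 0. Over these genes together, H3K9me3 touched 60 of 82 exons (73.2%) and H3K36me3 19 of 82 (23.2%). Over all protein-coding genes the shares were 6.60% and 21.2%, so the H3K36me3 count of the locus was close to that of all genes. All 5066 coding bp of Heatr7b1 and all 2015 of Hjurp were in the H3K9me3 list. H3K36me3 covered 1254 and 2015 bp of them. In Heatr7b1, H3K36me3 took 32.5% of bins with an exon and 9.47% of those without. These shares include the end shared with Hjurp, where 17 of 17 bins were in the H3K36me3 list. Exons 41 to 43 of the main transcript lie in that end. The shares outside it were not counted, so no preference of H3K36me3 for exons of Heatr7b1 is read from them. In Trpm8, 526 of 3312 coding bp were in the H3K9me3 list, in exons 9, 12 and 15 of the main transcript, all beyond the run. The run itself reached only its exon 1, which is not coding.

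**Figure D5:**
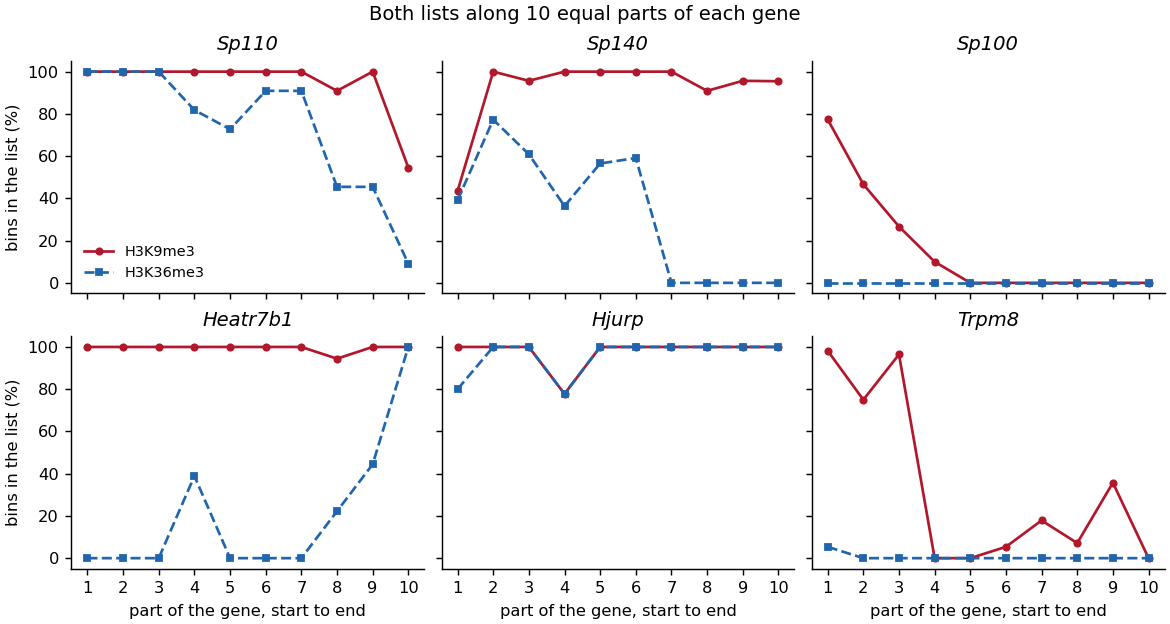
Share of bins in the H3K9me3 (red circles) and H3K36me3 (blue squares) lists in 10 equal parts of each gene from its start (part 1) to its end (part 10). H3K36me3 was highest near the start in Sp110 and Sp140 and near the end in Heatr7b1, and was even over Hjurp.

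The profiles of the genes differed in direction. Over 10 equal parts, H3K36me3 of Heatr7b1 was 0% in part 1 and 100% in part 10, where the gene overlaps Hjurp. In Sp110 it was 100% in part 1 and 9.09% in part 10. H3K9me3 of Sp100 was 77.4% in part 1, 46.7% in part 2 and 26.7% in part 3. In Trpm8 the same parts had 98.2%, 75.0% and 96.4%, and part 5 had 0% in both genes. Trpm8 then regained up to 35.7% in part 9, whereas Sp100 had 0% in parts 5 to 10. In Hjurp neither mark was below 77.8% in any part.

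Base pairs in both lists were compared between the loci. All 31.8 kb of H3K36me3 at the Sp100 cluster and all 22.4 kb at the Trpm8-Hjurp locus were in the H3K9me3 list, and each of the 21 and 8 H3K36me3 regions lay inside an H3K9me3 region. Over all genes 6.01% of H3K36me3 bins were in both lists. The shared length was 41.2% of the H3K9me3 length at the cluster and 25.5% at the locus. Counting only pairs of regions that overlap by 50% of both turned the order, with 2000 bp shared at the cluster and 17600 bp at the locus. Since the genes were chosen for their long H3K9me3 runs, that choice bears on how many H3K36me3 bins in them are in both lists, and nothing is read from the distance to 6.01%. As the lists join WT and G34R cells, a base pair in both lists need not carry both marks in the same cells.

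The rule of 5 kb left few regions close to its border. The nearest H3K9me3 region outside it lay 7673 bp from the end of Sp110, in Gm7592, and the next 11227 bp beyond Sp100. At the Trpm8-Hjurp locus an H3K9me3 region of the Ugt1a genes ended 6960 bp before Heatr7b1, and the next region after Trpm8 was 293332 bp away. H3K36me3 was further off, at 108427 bp or more from the Sp genes and 278760 bp or more from the others. Among other genes under the runs, Gm10552, a non-coding transcript inside Sp140, had 39 of 40 bins with H3K9me3 and 31 with H3K36me3. Gm17017, which runs across the end of Sp140 and the start of Sp100, had 43 of 48 and 0. 4930453O03Rik, inside Trpm8, had 10 of 28 and 0.

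Genes with related functions were counted from the pathway lists. Coverage as high as that of Sp110 or Sp140 is rare in any gene (10 and 13 of 13664), so nothing particular to the lists is read from its absence there. Of 13 genes of PML bodies and SAND domain proteins, 2 carried H3K9me3 (Pml, the scaffold of these bodies, with 600 bp, and the kinase Hipk2 with 1800 bp) and 11 carried H3K36me3. Over all 22367 protein-coding genes the shares were 40.2% and 34%. H3K36me3 covered 60.4% of the bins of Pml and 88.6% of those of Trim28, a corepressor that recruits H3K9 methylation. Of 12 genes of centromeres and CENP-A loading, 11 carried H3K36me3, and the highest H3K9me3 share was 7.14% of bins, or 600 bp, in Mis18a. Cenpa itself had H3K36me3 in 75.6% of bins and no H3K9me3. Of 7 TRPM channels, 5 carried H3K9me3 and 2 carried H3K36me3. Trpm2 had the highest H3K9me3 share of these lists at 22.2%, below the 33.6% of Trpm8. Of 9 genes with HEAT repeats, 3 carried H3K9me3 (at most 3.95% of bins, in Heatr6) and 6 carried H3K36me3.

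The genes most like each member were found by the Euclidean distance over 20 values, the share of each mark in 10 parts, among 13500 protein-coding genes of at least 10 kb. Hjurp and Sp110 had the same pair of neighbours, Gm13251 and Gm15319, at distances of 83.8 and 93.6 percentage points for Hjurp and 139 and 134 for Sp110. In these genes H3K9me3 took 93.5% and 95.3% of bins and H3K36me3 88.9% and 79.7%. Sp140 was closest to Hoxb3 and Hmx1 (148 and 150 points), and Heatr7b1 to Hmx1 and Skor1 (118 points each), all 3 of which had H3K9me3 in 96.6% or more and H3K36me3 in 0% of bins. Trpm8 was closest to Gm5607 (42.2 points) and Gdnf (51.6 points). Sp100 was closest to Ndrg4 (19.1 points) and Pogk (21.5 points), with H3K9me3 in 17.7% and 13.4% of bins.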

How the data were processed

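Per the labels and the methods of the study, 50 bp single reads were aligned to mm9 with Bowtie 1.0.0, allowing at most 5 alignments, and counted in 200 bp bins in SeqMonk. WT and G34R distributions were matched by the authors, bins of annotated genes above the 95th percentile in either were kept, and bins within 100 bp were joined with BedTools 2.20.1. The deposited lists give the start and end of each region and no signal, so a region edge at a gene boundary cannot be told apart from the restriction to genes. The tool versions named for Bowtie and BedTools are from the submitters' processing notes.

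The members and the gene lists were chosen with earlier results of these data known. Positions are 1-based on NCBIM37 with the GENCODE annotation of that build. Regions overlapping the 6 genes extended by 5 kb were taken, and 200 bp bins of each gene without unknown bases were counted. The exons of a gene are the union over its transcripts, and its main transcript is that with the longest coding sequence. Exact copies of the central 50 bases of each bin, and of every 50 base window at the loci, were counted on both strands of all sequences of the assembly. Longer copies were found with BLAST 2.17.0 (megablast, at least 95% identity and 2.5 kb). Named genes were the members, genes under their H3K9me3 runs, the pathway lists and the 2 most alike genes of each member. Genes of the copies were named after their values were seen. Shares carry 95% Wilson intervals, and no p-value was computed. Analyses used Python 3.11.15 and were tested on simulated data. Of the settings tried, 2 were added after the data were seen. Not all genes of the pathway lists are reported here by name.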

Additional observations from a re-analysis of the deposited data

How the results depend on the processing

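The values that changed most were those of the Sp genes. In bins with unique central 50 bases, H3K9me3 took 29.3% of the bins of the 3 Sp genes and H3K36me3 10.4%, against 56.6% and 24.4% in all bins. In bins with no window of more than 5 copies, chosen after seeing the data, they took 15.9% and 3.10%. The share of copied H3K9me3 bins at the cluster was 98.7% with any window, 79.5% with the central 36 bases, 39.9% with more than 5 copies and 61.4% on chromosomes only, the last also chosen after seeing the data. At the Trpm8-Hjurp locus it was 2.96% with any window and 1.37% with 36 bases, in place of 0. The longest run at the cluster was 90.8 kb with gaps of 5 kb and 157.2 kb with gaps of 10 kb. Regions of at least 1 kb numbered 10 for H3K9me3 and 4 for H3K36me3 at the Trpm8-Hjurp locus. H3K36me3 covered 12 exons there in full, in place of 19 touched. With a reciprocal overlap of 50%, 2000 bp were shared at the cluster. Single genes moved in 15 of 42 values, among them H3K36me3 of Trpm8 (4.43% with 5 kb flanks, 0.537% without) and H3K9me3 in the first part of Sp140 (71.1% with 5 parts, 43.5% with 10). The order of the loci turned in some settings. In unique bins the Sp genes were below the Trpm8-Hjurp genes, which had 54.6% H3K9me3 and 13.9% H3K36me3, whereas in all bins the latter had 54.0% and 13.8%. Most unique bins of the Sp genes lie in Sp100, where H3K9me3 took 7.51% of them, against 89.7% in Sp110 and 88.9% in Sp140. The longest run at the Trpm8-Hjurp locus was 84.0 kb with gaps of 5 kb and 107.2 kb with gaps of 10 kb, shorter than at the cluster, and with a reciprocal overlap of 50% it had 17600 shared bp, more than the cluster. The 3.10% of H3K36me3 bins was below the 5.33% of all genic bins because 221 of the bins kept were of Sp100, with 0 in the list. Sp110 had 6 of 16 bins (37.5%). Sp140 had 2 of 21 (9.52%), too few to set its share apart from 5.33%. A stricter signal threshold was not run, since the lists hold no signal. No paired analysis was possible because each group had 1 library and the lists pool WT and G34R cells. Depth is unknown, and strain differences from the assembly were not measured.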

Other observations

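The larger block of copies of the Sp genes on chromosome 1 (84981745 to 85343678, 361.9 kb) also had regions in both lists. It held 40 H3K9me3 regions over 229 kb and 45 H3K36me3 regions over 51.4 kb, and all 51.4 kb of H3K36me3 were in both lists. Over all genes 6.01% of H3K36me3 bins were in both lists. The block is a copy of genes chosen for their H3K9me3 runs and has much H3K9me3 itself, so nothing is read from the distance to 6.01%. In copied windows, signal from the block cannot be told apart from that of the Sp genes. The smaller block (87343679 to 87436090) held 5 H3K9me3 regions over 20.1 kb and 0 H3K36me3 regions. These blocks were chosen after their alignments were seen. The annotated genes of the larger block include C130026I21Rik, A530032D15Rik, A530040E14Rik, Gm7582, Gm7609 and Gm2619.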
